A study of Mus musculus with 2 samples.

Results

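The Iroquois homeobox genes Irx1, Irx2, Irx3, Irx4, Irx5 and Irx6 were described in the embryonic facial prominences of the mouse at day 12.5 of gestation. The members were the rows of the deposited gene tables whose Ensembl identifiers carry these 6 symbols, and all 6 were found among 21474 protein-coding genes and 43346 mouse gene identifiers. The data were 2 total RNA-seq libraries of 1 group: tissue of strain B6NCrl from healthy male and female embryos together, with no treatment or mutant allele named in the labels. Replicate 2 pooled the tissue of 88 embryos and replicate 1 that of 120, and each library was made from 10 ng of RNA with a labelled size range of over 200. Replicate 2 held 39969716 expected counts in all, and replicate 1 held 27890681. With 1 group there was no contrast between conditions and no test; values are given per library, as mean ± SD over the 2 pools (n = 2), with counting intervals that cover counting error only.

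Iroquois proteins are transcription factors of the TALE class, whose homeodomain carries an extended loop and which also includes the Meis, Pbx, Pknox, Tgif and Mkx proteins. The mouse genes lie in a pair of clusters that arose by duplication: IrxB on chromosome 8 holds Irx3, Irx5 and Irx6, and IrxA on chromosome 13 holds Irx1, Irx2 and Irx4. By position in the cluster, Irx3 corresponds to Irx1, Irx5 to Irx2 and Irx6 to Irx4. The genes pattern the neural tube, heart, limb, retina and lung, and loss of human IRX5 function causes Hamamy syndrome, in which the face and skull are malformed.

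Identity over the full coding sequences was not computed. The DNA-contacting part of the homeodomain is printed to compare the bases of the members within this part only. For each gene it is a stretch of 90 coding bases (30 codons) that contains the recognition helix, read from the GRCm38/mm10 genome on the coding strand, with capitals marking bases that differ from Irx3. The stretches lie at chr8:91800496-91800585 (minus strand) for Irx3, chr8:92359726-92359815 (plus) for Irx5, chr8:92677335-92677424 (plus) for Irx6, chr13:71959992-71960081 (minus) for Irx1, chr13:72630763-72630852 (plus) for Irx2 and chr13:73267622-73267711 (plus) for Irx4.
Irx3: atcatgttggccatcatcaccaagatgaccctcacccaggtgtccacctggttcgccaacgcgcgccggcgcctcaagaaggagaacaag
Irx5: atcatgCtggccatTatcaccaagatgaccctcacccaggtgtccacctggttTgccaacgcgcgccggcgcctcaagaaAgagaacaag
Irx6: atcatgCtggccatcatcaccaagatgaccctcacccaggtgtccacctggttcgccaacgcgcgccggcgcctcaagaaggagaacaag
Irx1: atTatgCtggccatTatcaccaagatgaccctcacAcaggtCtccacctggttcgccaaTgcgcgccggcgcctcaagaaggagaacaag
Irx2: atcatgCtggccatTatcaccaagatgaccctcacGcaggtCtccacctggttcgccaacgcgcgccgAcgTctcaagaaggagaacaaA
Irx4: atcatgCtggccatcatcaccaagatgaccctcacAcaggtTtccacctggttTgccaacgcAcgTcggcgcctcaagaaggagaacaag
Irx6 differed from Irx3 at 1 base, Irx5 at 4, Irx1 and Irx4 at 6 each and Irx2 at 7, and every difference was synonymous: 0 codons changed the encoded residue in any member. Base identity over the stretch was 95.6% to 98.9% in the 3 pairs within IrxB, 90.0% to 93.3% in the 3 pairs within IrxA, and 92.2% to 94.4% in the 3 pairs at corresponding positions. The 6 other pairs across the clusters had the same range, 92.2% to 94.4%. Over the annotated transcripts, the longest exact match between any 2 members was 88 bases, between Irx3 and Irx6. The longest matches were 38 to 88 bases in the pairs within IrxB and 30 to 65 bases in the pairs at corresponding positions. They were 23 to 32 bases in the pairs within IrxA and also in the other pairs across the clusters. This bears on how reads could be assigned. In the deposited tables the posterior SD of the expected count was 0 for 5 of the 6 members in both libraries, and for Irx3 it was 0.61 reads in replicate 2 and 0.56 reads in replicate 1, so the gene totals held almost no reads shared with another gene.

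Irx3 and Irx5, both of the IrxB cluster, were the most abundant Iroquois transcripts of the facial prominences. Irx3, a factor known for its roles in the neural tube and in the conduction system of the heart, had 40.35 TPM in replicate 2 (TPM is an abundance scaled to the library total and corrected for transcript length) and 30.19 TPM in replicate 1, a mean of 35.3 ± 7.18 TPM. Irx5, the gene of Hamamy syndrome, had 28.11 TPM in replicate 2 and 22.91 TPM in replicate 1, a mean of 25.5 ± 3.68 TPM. Together they made up 44.0% (Irx3) and 32.0% (Irx5) of the summed Iroquois TPM, averaged over the libraries. In bulk tissue, a lower level in each cell and fewer cells that express the gene cannot be told apart.

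Irx2 followed with 11.84 TPM in replicate 2 and 8.32 TPM in replicate 1, a mean of 10.1 ± 2.49 TPM and 12.5% of the family's sum. Irx4, known as a factor of the ventricular heart muscle, had 4.82 TPM in replicate 2 and 3.95 TPM in replicate 1. Irx1, of the same cluster, had 4.45 TPM in replicate 2 and 3.93 TPM in replicate 1. Both were under the median protein-coding gene, which stood at 5.20 TPM in replicate 2 and 5.26 TPM in replicate 1.

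Irx6, which in the mouse retina acts in the development of bipolar cells, was the lowest member. It had 0.51 TPM in each library, from 41 reads in replicate 2 and 28 reads in replicate 1, and it made up 0.648% of the family's sum. The exact Poisson interval (95%) of its level ran from 0.366 to 0.692 TPM in replicate 2, and in replicate 1 from 0.339 to 0.737 TPM. By contrast, Irx3 was counted by 2498.63 expected reads in replicate 2 and 1317.69 in replicate 1, Irx5 by 1605 and 922, Irx2 by 580 and 267, Irx4 by 280 and 161, and Irx1 by 251 and 156, in the same order of libraries.

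**Figure D1:**
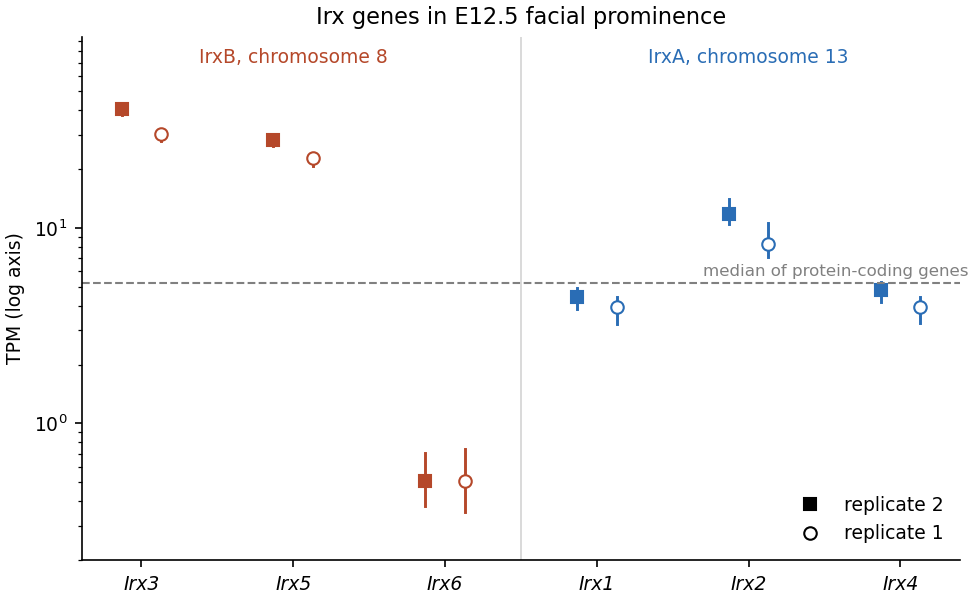
TPM of each Irx gene (log axis) in replicate 2 (filled squares) and replicate 1 (open circles), with the 3 IrxB genes in red left of the 3 IrxA genes in blue; vertical bars are the deposited credibility intervals and the dashed line is the mean of the 2 libraries' protein-coding medians. Irx3 lies at 40.35 and 30.19 TPM and Irx6 at 0.51 TPM in both.

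The order Irx3, Irx5, Irx2, Irx4, Irx1, Irx6 was the same in the 2 libraries. The deposited credibility intervals of neighbours in this order did not overlap in either library, except those of Irx4 and Irx1. In replicate 2 the interval of Irx4 ran from 4.18 to 5.30 TPM and that of Irx1 from 3.84 to 4.92 TPM. In replicate 1 they ran from 3.27 to 4.46 TPM for Irx4 and from 3.24 to 4.42 TPM for Irx1, so these 2 genes could not be ordered. Among protein-coding genes ranked by TPM, Irx3 stood at percentile 80.4 in replicate 2 and 75.4 in replicate 1. Irx5 stood at percentile 74.0 in replicate 2 and 70.4 in replicate 1, and Irx6 at 33.3 and 33.2. In all, 5 of the 6 members had at least 1 TPM in both libraries; of the 21474 protein-coding genes 61.8% did.

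The 2 clusters have the same order of positions and strands along the chromosome and were compared as wholes and pair by pair. In the GENCODE M21 annotation of GRCm38/mm10, IrxB spans 882 kb of chromosome 8, with Irx3 at 91798525 to 91802067 on the minus strand, Irx5 at 92357625 to 92376286 on the plus strand and Irx6 at 92674288 to 92680956 on the plus strand. IrxA spans 1312 kb of chromosome 13, with Irx1 at 71957921 to 71963723 on the minus strand, Irx2 at 72628820 to 72634198 on the plus strand and Irx4 at 73260479 to 73269608 on the plus strand. In each cluster the first gene is thus transcribed away from the other 2. No other protein-coding gene is annotated between the members of either cluster.

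The IrxB genes had a sum of 68.97 TPM in replicate 2 and 53.61 TPM in replicate 1, a mean of 61.3 ± 10.9 TPM. The IrxA genes had a sum of 21.11 TPM in replicate 2 and 16.2 TPM in replicate 1, a mean of 18.7 ± 3.47 TPM. The log2 ratio of IrxB over IrxA was 1.71 in replicate 2 and 1.73 in replicate 1, a mean of 1.72 ± 0.013, or 3.29-fold. Its exact counting interval (95%) was 1.61 to 1.80 in replicate 2 and 1.59 to 1.86 in replicate 1. The cluster sums differed between the libraries by more than the ratio of the clusters did.

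At the first position, Irx3 over Irx1 had a log2 TPM ratio of 3.18 in replicate 2 and 2.94 in replicate 1, a mean of 3.06 ± 0.169, or 8.35-fold. At the second, Irx5 over Irx2 had a log2 TPM ratio of 1.25 in replicate 2 and 1.46 in replicate 1, a mean of 1.35 ± 0.151, or 2.56-fold. At the third the direction was the opposite: Irx6 over Irx4 had a log2 TPM ratio of -3.24 in replicate 2 and -2.95 in replicate 1, a mean of -3.10 ± 0.203, so that Irx6 was 8.56-fold lower. All 3 ratios were beyond 2-fold in both libraries, and no counting interval reached a ratio of 1. With Irx6 and Irx4 left out, the log2 ratio of the cluster sums was 2.09, so the higher IrxB sum lay in Irx3 and Irx5.

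**Figure D2:**
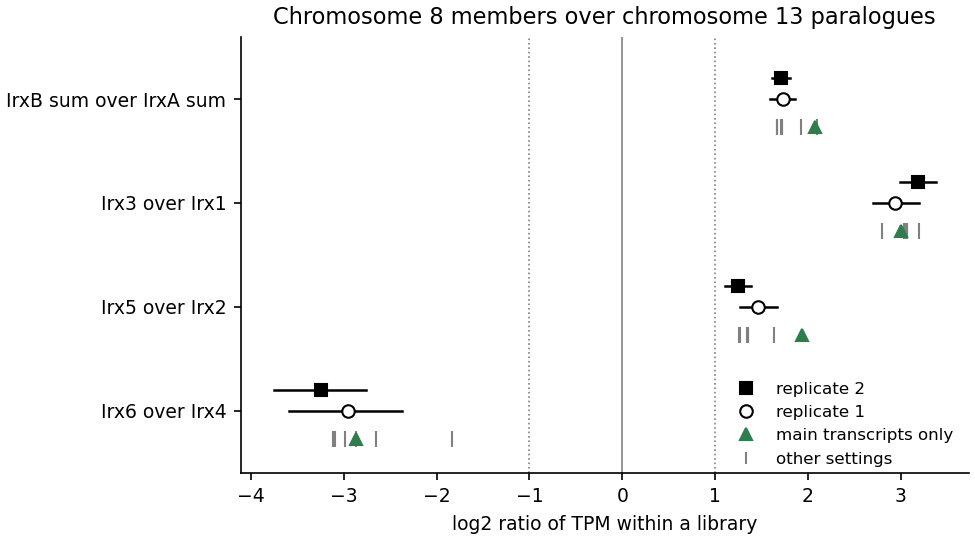
Log2 ratios of TPM within a library for the cluster sums and the 3 pairs, chromosome 8 member over chromosome 13 member, in replicate 2 (filled squares) and replicate 1 (open circles) with exact counting intervals; green triangles use only the main transcript of each gene and grey ticks the other settings. The first 3 ratios lie above 1 and Irx6 over Irx4 lies below -1 under every setting drawn.

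Among the noncoding genes of the clusters, Crnde had a level between those of Irx3 and Irx5. Crnde, a long noncoding RNA named for its expression in human colorectal tumours, starts 1.505 kb from the Irx5 start and is transcribed the other way. It had 35.45 TPM (617 reads) in replicate 2 and 28.17 TPM (335 reads) in replicate 1, a mean of 31.8 ± 5.15 TPM. The log2 TPM ratio of Crnde over Irx5 was 0.33 in replicate 2 and 0.30 in replicate 1, a mean of 0.32 ± 0.026, or 1.25-fold.

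The RNA antisense to Irx3, Irx3os, was much lower than Irx3. It had 2.23 TPM (118 reads) in replicate 2 and 1.87 TPM (66.3 reads) in replicate 1. The log2 TPM ratio of Irx3os over Irx3 was -4.18 in replicate 2 and -4.01 in replicate 1, 17.1-fold lower on average. The exons of the 2 genes overlap by 124 bases. Whether reads were counted by strand is not given in the sources used here, so the strand of reads from that overlap is unknown. The posterior SD of the Irx3os count was 0.61 reads in replicate 2 and 0.56 reads in replicate 1, the same as that of Irx3.

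The remaining noncoding rows were sparse. Of 16 non-member genes that lie inside IrxB or within 50 kb of a member, 8 had rows in the tables. Of these 8, Crnde and Irx3os reached 1 TPM in each library, and 5 had under 3 reads in both (Gm28511, Gm28515, Gm28516, Gm24254 and Gm21817). The eighth, the processed pseudogene Gm3272, had 0.98 TPM in replicate 2 and 1.31 TPM in replicate 1. Of 13 such genes around IrxA, 3 had rows. The pseudogene Gm10263 had 3.04 TPM in replicate 2 and 2.55 TPM in replicate 1, and the ribosomal protein pseudogene Rpl9-ps4 had 0.19 TPM in replicate 2 and 4.28 TPM in replicate 1; reads of processed pseudogenes can come from their parent genes, so these values are uncertain.

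The third IrxA row, the long noncoding RNA Gm20554, shares its start region with Irx2 as Crnde does with Irx5. It starts 256 bases from Irx2 on the opposite strand, and it had 0.60 TPM (11 reads) in replicate 2 and 0.31 TPM (4 reads) in replicate 1. Its log2 TPM ratio to Irx2 was -4.30 in replicate 2 and -4.75 in replicate 1, so of the divergent noncoding partners the one in IrxB was near its coding gene in level and the one in IrxA was 23.0-fold below it. The sequence between these 2 starts is printed because both genes are transcribed away from it. It holds the 250 bases before Irx2, from the RefSeq promoter table for GRCm38, at chr13:72628570-72628819 on the plus strand, with CpG dinucleotides in capitals.
Irx2: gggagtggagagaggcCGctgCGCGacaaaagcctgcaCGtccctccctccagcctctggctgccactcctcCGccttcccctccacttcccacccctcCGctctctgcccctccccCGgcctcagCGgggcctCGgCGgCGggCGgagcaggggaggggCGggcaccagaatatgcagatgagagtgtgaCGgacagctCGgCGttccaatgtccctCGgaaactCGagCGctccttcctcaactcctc
It held 19 CpG dinucleotides and 68.4% G and C. RefSeq windows of 300 bases were found for 3 of the 6 members, of which that of Irx3 lies wholly inside the annotated gene, and their observed over expected CpG ratios were 0.748 for Irx3, 0.723 for Irx2 and 0.828 for Irx4, against a median of 0.384 over 32851 windows. The palindrome ACANNTGT, known as a binding site of the Drosophila Iroquois protein Mirror, had 0 matches in the 3 windows, read on either strand, while 7.38% of all windows held it.

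**Figure D3:**
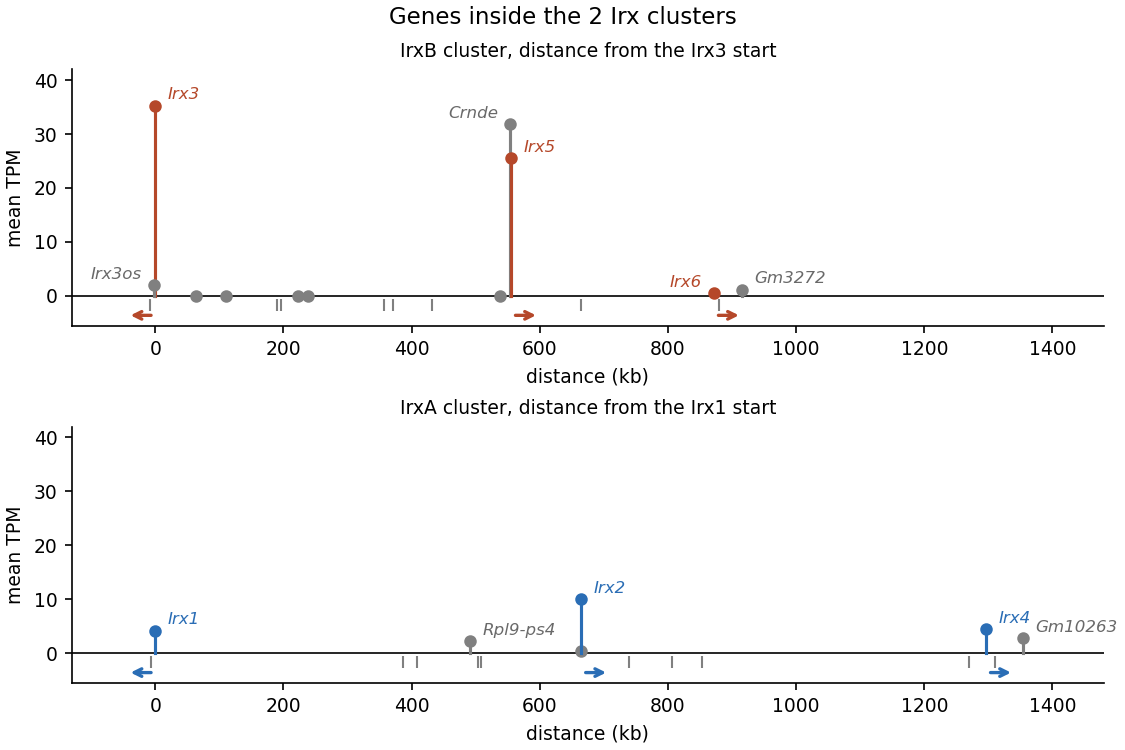
Mean TPM of the genes inside IrxB (upper panel) and IrxA (lower panel) at the distance of their start from the Irx3 or Irx1 start in kb; coloured stems are Irx genes with an arrow for the direction of transcription, grey stems are other genes with a row in the tables, and grey ticks are annotated genes without a row. Crnde at 31.8 TPM stands beside Irx5 at 25.5 TPM, and Irx6 at 0.51 TPM ends the IrxB cluster.

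The nearest protein-coding genes outside the clusters covered a wide range of levels. Fto, whose introns are known to hold distant enhancers of Irx3, lies next to Irx3 and had 87.17 TPM in replicate 2 and 82.2 TPM in replicate 1. Beyond it, Rpgrip1l, a gene of the primary cilium, had 6.84 TPM in replicate 2 and 7.73 TPM in replicate 1, and Aktip had 49.25 and 50.79 TPM. On the other side of IrxB, the matrix protease gene Mmp2 had 144.66 TPM in replicate 2 and 142.43 TPM in replicate 1. The paralogues Lpcat2 and Lpcat1, enzymes of phospholipid remodelling, flank IrxB and IrxA in turn: Lpcat2 had 5.62 TPM in replicate 2 and 6.68 TPM in replicate 1, and Lpcat1 had 48.48 and 53.19 TPM. In this 1 pair the gene on the IrxB side was the lower one, and neither is the nearest gene to its cluster. Around IrxA, Ndufs6 had 287.95 TPM in replicate 2 and 303.58 TPM in replicate 1, and Mrpl36 had 98.61 and 103.32 TPM. On its other side Adamts16 had 1.11 and 0.72 TPM, Ice1 had 15.72 and 16.33 TPM, and Med10 had 125.55 and 129.27 TPM. Capns2, on the Lpcat2 side of IrxB, had 0.31 and 0.44 TPM.

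The transcript tables showed 1 predominant form for Irx3. Transcript Irx3-202 had 96.94% of the gene's TPM in replicate 2 and 95.37% in replicate 1, and Irx3-201 had 3.06% in replicate 2 and 4.63% in replicate 1. The annotated forms differ in the coding sequence by an alternative splice donor that adds 14 bases, shown in capitals in the spliced sequence of the coding strand (chr8:91799462-91799688, minus strand, GRCm38/mm10, with 16 bases on either side).
Irx3-201: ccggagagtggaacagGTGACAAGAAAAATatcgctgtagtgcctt
Irx3-202: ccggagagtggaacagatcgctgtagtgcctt
The longer form reads 522 codons and the shorter 507, since the insertion shifts the reading frame near the end of the coding sequence. The tables list the forms at 2610 bases (Irx3-201) and 2597 bases (Irx3-202), so the insertion is not their only difference. The posterior SD of the Irx3-201 count was 30.3 reads in replicate 2, where 76.7 were assigned, and 33.3 reads in replicate 1, where 61.3 were assigned.

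Irx2 was spread over the most annotated transcripts by TPM. The full-length Irx2-201 had 69.96% of the gene's TPM in replicate 2 and 64.31% in replicate 1. The retained-intron transcript Irx2-202 had 19.21% in replicate 2 and 13.52% in replicate 1, and the short Irx2-205, annotated with only 39 coding bases, had 10.82% in replicate 2 and 19.44% in replicate 1. Irx2-205 rested on 14.6 reads with a posterior SD of 9.31 in replicate 2 and on 12.99 reads with one of 5.52 in replicate 1. Short transcripts weigh more in TPM than in reads, and by expected counts Irx2-201 held 89.4% in replicate 2 and 88.4% in replicate 1. Irx2-201 alone had 8.29 TPM in replicate 2 and 5.35 TPM in replicate 1. Irx5 over Irx2-201 was 3.39-fold in replicate 2 and 4.28-fold in replicate 1, a mean log2 ratio of 1.93 ± 0.238. With only the main transcript of every member, which also leaves out Irx4-201, IrxB over IrxA had a mean log2 ratio of 2.07 ± 0.009.

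Irx4 was split between forms that encode the same protein. Irx4-202 had 71.62% of the gene's TPM in replicate 2 and 77.36% in replicate 1, and Irx4-201 had 28.38% in replicate 2 and 22.64% in replicate 1. By expected counts Irx4-202 held 69.8% in replicate 2 and 75.8% in replicate 1, a smaller share than that of Irx2-201. Both Irx4 forms carry the same 1545 coding bases and differ in the first exon. Their assignment was uncertain by 28.3 reads (posterior SD) in replicate 2 and 18.0 reads in replicate 1, so the shares of the 2 libraries differed by less than this uncertainty. For Irx6, Irx6-201 had 100% in replicate 2 and 76.86% in replicate 1, on totals of 41 and 28 reads, too few to separate its forms. Irx5 and Irx1 each had 1 transcript in the tables.

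**Figure D4:**
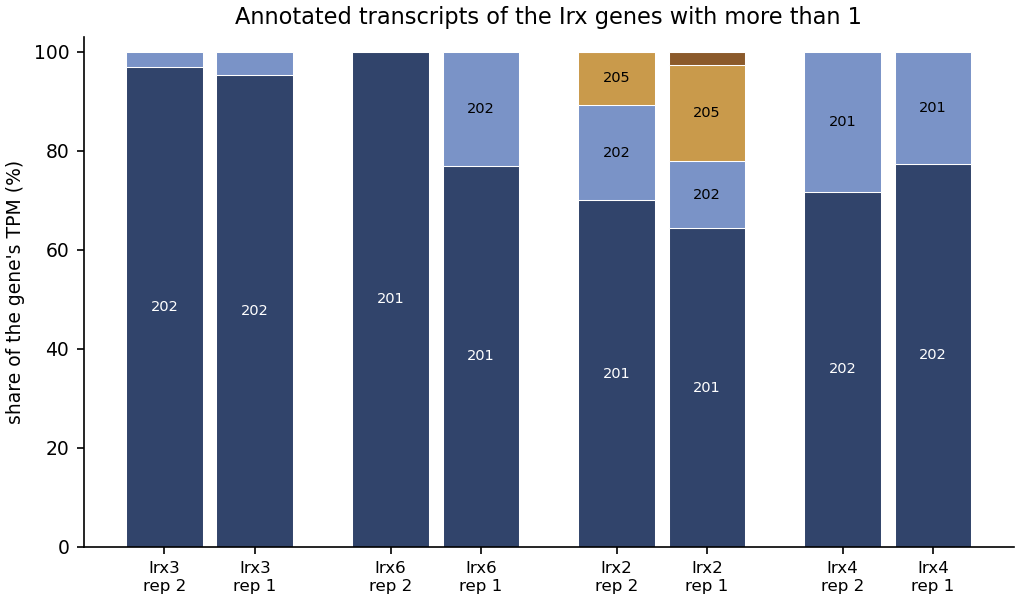
Share of each gene's TPM (percent) by annotated transcript, in replicate 2 (left bar of each pair) and replicate 1 (right bar), for the 4 Irx genes with more than 1 transcript in the tables; numbers in the bars are transcript suffixes. Irx3-202 holds 96.94% and 95.37%, while Irx2 is divided among Irx2-201, Irx2-202 and Irx2-205.

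Between the pools, 4 of the 6 Iroquois genes were higher in replicate 2 beyond the exact counting interval, while Irx1 was not and Irx6 was equal. Of 13490 protein-coding genes with a mean of at least 1 TPM, 18.7% were higher in this way. The summed Iroquois TPM was 90.08 in replicate 2, against 69.81 in replicate 1. On the log2(TPM + 1) scale the difference (replicate 2 minus replicate 1) was 0.46 for Irx2, 0.41 for Irx3, 0.28 for Irx5, 0.23 for Irx4, 0.14 for Irx1 and 0 for Irx6. The 4 members past the interval were Irx2, Irx3, Irx5 and Irx4. The interval of the log2 TPM ratio ran from 0.30 to 0.72 for Irx2 and from 0.32 to 0.52 for Irx3, that of Irx4 began at 0.0024, and that of Irx1 ran from -0.11 to 0.48. None of the 6 was past 2-fold, and of those protein-coding genes 0.252% were. Irx6, with a mean under 1 TPM, lies outside that background.

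The median difference of the 6 members was 0.26, and that of the protein-coding genes was 0.0039, with a median absolute difference of 0.083. Irx2 lay at percentile 98.6 of the signed differences, Irx3 at 98.1, Irx5 at 95.8, Irx4 at 93.6 and Irx1 at 86.1. With counts scaled to the 96 ERCC spike-in RNAs, the median of all these genes moved to -0.13, and the differences of Irx3 and Irx5 were 0.28 and 0.16. Crnde, beside Irx5, was 1.26-fold higher in replicate 2, and the interval of its log2 TPM ratio ran from 0.14 to 0.53.

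Other tissue markers also differed between the pools. The neuronal markers Tubb3, Stmn2, Nefl and Elavl4 summed to 334.27 TPM in replicate 2, against 433.77 TPM in replicate 1. Replicate 2 over replicate 1 was 0.729-fold for Tubb3, 0.766-fold for Stmn2, 0.763-fold for Nefl and 0.915-fold for Elavl4. All were lower beyond the counting interval, which is narrow at high read counts. The share of all protein-coding genes lower in this way was not computed. The mesenchymal markers Prrx1, Pdgfra, Twist1, Alx1 and Msx1 summed to 771.48 TPM in replicate 2, against 744.54 TPM in replicate 1. Within that list Alx1, a factor of the frontonasal mesenchyme, and Twist1 were higher in replicate 2 beyond the counting interval (1.46-fold and 1.08-fold). The other 3 were lower beyond it, by little: Prrx1 0.961-fold, Pdgfra 0.965-fold and Msx1 0.968-fold. The epithelial markers Epcam, Cdh1, Krt5, Krt14 and Trp63 summed to 258.91 TPM in replicate 2, against 262.13 TPM in replicate 1. The neural progenitor markers Sox1, Sox2, Pax6, Olig2 and Hes5 summed to 53.24 TPM in replicate 2, against 54.54 TPM in replicate 1. In that list Pax6 (1.51-fold) and Olig2 (1.75-fold) were higher in replicate 2 beyond the counting interval, and Sox2 (0.847-fold) and Hes5 (0.788-fold) were lower. The part of tissue composition in the Irx differences was not tested.

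**Figure D5:**
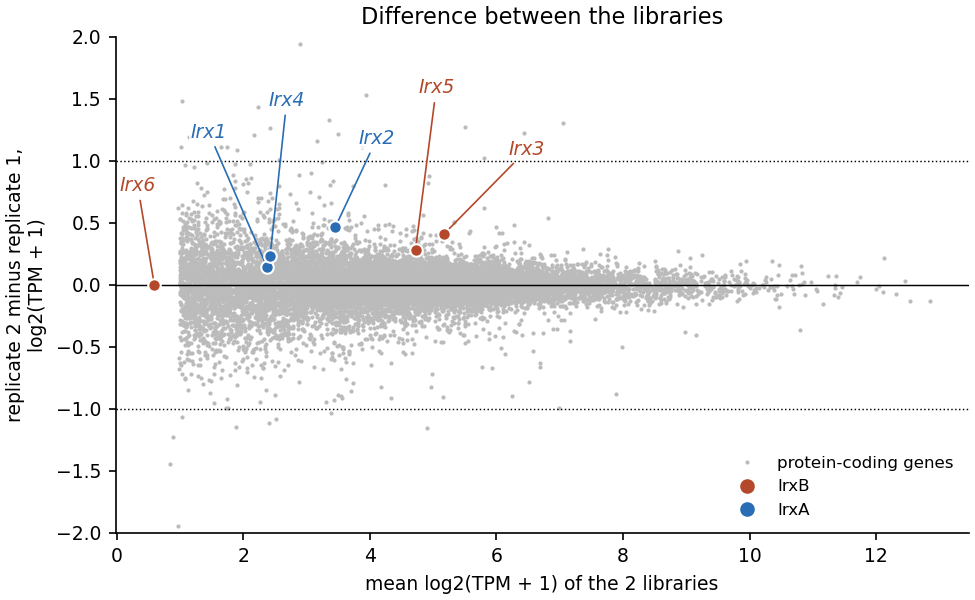
Difference between the libraries (replicate 2 minus replicate 1, log2(TPM + 1)) against the mean level on the same scale, for protein-coding genes with a mean of at least 1 TPM (grey, 5 of them beyond the plotted range of 2 log2 units) and the Irx genes (IrxB red, IrxA blue). Irx2 at 0.46 and Irx3 at 0.41 lie in the upper part of the grey points, and Irx6 lies at 0.

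The Iroquois genes were a small part of the TALE homeobox transcripts. The other 12 TALE genes had a sum of 543.67 TPM in replicate 2 and 539.52 TPM in replicate 1, so the Iroquois genes held 14.2% of all TALE TPM in replicate 2 and 11.5% in replicate 1. All 12 had at least 1 TPM in both libraries, as did 61.8% of all protein-coding genes, and their median was 38.2 TPM. The most abundant were Tgif1, a corepressor of TGF-beta signalling, at 98.97 ± 6.89 TPM and Meis1, a cofactor of Hox proteins, at 92.1 ± 2.37 TPM. Mkx, the TALE gene closest in kind to the Iroquois genes and a regulator of tendon, had 11.46 TPM in replicate 2 and 14.42 TPM in replicate 1, above Irx2 in replicate 1 and just under it in replicate 2. Pbx3 had 30.17 TPM in replicate 2 and 34.15 TPM in replicate 1, and Meis3 had 40.10 and 48.25 TPM. Irx3, the highest Iroquois gene, was above both in replicate 2 and below both in replicate 1.

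Partners of Iroquois proteins were detected to different degrees. Human IRX5 is known to bind the GATA-type zinc finger proteins GATA3 and TRPS1. Gata3 had 18.60 TPM in replicate 2 and 19.61 TPM in replicate 1, below Irx5 in both libraries, and Trps1 had 55.43 and 57.04 TPM. In the chick, Irx4 acts with the vitamin D and retinoid X receptors. Rxra had 13.12 TPM in replicate 2 and 12.18 TPM in replicate 1, while Vdr, the vitamin D receptor gene, had 0.78 and 0.50 TPM.

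Of 5 genes known as targets of Iroquois factors in other tissues, 4 had at least 1 TPM in both libraries. Of all protein-coding genes 61.8% did, so with 5 genes this count does not set the targets apart. Cxcl12, a chemokine that Irx5 represses in frog cranial neural crest, had 170.97 TPM in replicate 2 and 207.36 TPM in replicate 1. The connexin gene Gja1, which Irx3 represses in the mouse heart, had 240.15 TPM in replicate 2 and 196.74 TPM in replicate 1. Gja5, a connexin gene that Irx3 activates there, had 11.23 TPM in replicate 2 and 16.51 TPM in replicate 1. Olig2, which represses and is repressed by Irx3 in the neural tube, had 2.49 TPM in replicate 2 and 1.42 TPM in replicate 1. The fifth, Kcnd2, a potassium channel gene that Irx5 represses in the mouse heart, had 1.07 TPM in replicate 2 and 0.89 TPM in replicate 1. Gli3, the Hedgehog effector with which Irx3 and Irx5 act in the limb bud, had 29.41 TPM in replicate 2 and 29.50 TPM in replicate 1.

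Markers of heart and retina, tissues in which single Iroquois genes are best known, were also read. The ventricular heart muscle markers Myl2, Myl3, Myh7, Tnni3 and Nkx2-5 had a sum of 12.36 TPM in replicate 2 and 13.21 TPM in replicate 1. Irx4 alone had 4.82 and 3.95 TPM. Within the list, Myh7 was near Irx4, with 4.77 TPM (712 reads) in replicate 2 and 3.79 TPM (400 reads) in replicate 1. Myl2 had 5 reads in replicate 2 and 20 in replicate 1. Beyond the counting interval, Myh7 was higher in replicate 2 and Myl2 was lower. The retinal bipolar and photoreceptor gene Crx, the lowest of the retinal markers listed, was at 0 in replicate 2 and had 3 reads in replicate 1. The part of heart or retinal tissue in the levels of Irx4 and Irx6 was not tested.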

How the data were processed

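Total RNA-seq libraries of E12.5 facial prominences were analysed, 1 per pool of embryos. Per the submitters' processing notes, the tables were made on assembly mm10 with GENCODE M4; the aligner, quantifier, strand setting and any depletion of ribosomal RNA were not given in the sources at hand. Per the file headers, the deposited tables hold expected counts, TPM (abundance per transcript length, scaled to the library), FPKM, posterior means and credibility intervals whose level is not given, and isoform shares in percent of the gene's TPM. FPKM as deposited served only as an alternative. The pools are labelled as biological replicates. The replicate numbers name libraries of 1 group and pair nothing.

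Symbols and coordinates came from GENCODE M21 on the same build. Members, named genes and lists were chosen with earlier results of these data known. Named were all 6 members, genes inside the clusters or within 50 kb, the nearest 3 protein-coding genes a side, the other TALE genes, and fixed lists of partners, targets and markers; the summed retinal list is not reported here. No likeness of patterns was computed over 2 libraries. Levels are deposited TPM. Ratios were taken within a library with no pseudocount, and called when their mean was beyond 2-fold with the same sign in both libraries. Library differences are on log2(TPM + 1). Intervals are exact Poisson for expected counts and exact binomial for ratios (95%), and cover counting error only. Scaling alternatives used edgeR 4.0.16 (TMM and RLE factors) in R 4.3.3 and the ERCC spike-ins; other values used Python 3.11.15 with scipy 1.17.1. The scripts were tested on simulated data.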

Additional observations from a re-analysis of the deposited data

How the results depend on the processing

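No ratio changed direction: 37 of 37 alternative ratios kept their side of 0 and stayed past 2-fold. These alternatives are not independent. FPKM and the summed transcripts restate the same TPM and could hardly differ, and leaving out a library repeats a value already given. The log2 ratio of IrxB over IrxA was 1.66 with posterior mean TPM, 1.66 with a pseudocount of 1 TPM, 1.93 with counts not divided by length, 2.09 without Irx4 and Irx6, and 2.07 with main transcripts only, an alternative chosen after seeing the data; leaving out a library gave 1.71 to 1.73. Irx3 over Irx1 was 2.79 with a pseudocount of 1 TPM (2.94 to 3.18 by library). Irx5 over Irx2 was 1.63 with counts not divided by length and 1.93 with main transcripts only (1.25 to 1.46 by library). Irx6 over Irx4 was -2.65 with counts not divided by length, -1.83 with a pseudocount of 1 TPM, -2.87 with one of 0.1 TPM and -2.87 with main transcripts only (-3.24 to -2.95 by library). A threshold of 0.5 TPM admitted all 6 members. Among 40 single-gene alternatives 5 moved beyond the spread used: the library differences of Irx3 and Irx5 under spike-in scaling, and transcript shares of Irx2 and Irx6. No paired analysis was possible because there was 1 group. Irx6 is limited by depth: 41 reads in replicate 2 and 28 in replicate 1 give the wide interval in the report.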
